A study of Homo sapiens with 12 samples.

Results

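The genes described here are 44 genes whose products license origins of DNA replication, switch on the replicative helicase and copy DNA at the fork. They were taken by symbol, as the rows of the deposited count table whose Ensembl identifier, without its version, belongs to one of these symbols. All 44 were found among the 70116 identifiers of the table, and all 44 were among the 16197 genes that passed the filter on low counts, with at least 184 counts in every library. The libraries are poly(A) RNA of MiaPaCa-2 cells (an established line from a human pancreatic carcinoma) transfected with small interfering RNAs (siRNAs), which lower a matching transcript. There were 4 groups of 3 libraries: siControl, siSLC25A1 against the mitochondrial citrate carrier SLC25A1, siACLY against ATP citrate lyase, which turns cytosolic citrate into acetyl-CoA, and siACO1 against the cytosolic aconitase ACO1, which also acts as an iron regulatory protein. All 12 libraries thus share 1 line and an siRNA transfection. How many siRNAs were used against each target, their sequences, the harvest time and the nutrients in the medium are not in the labels. Nothing in the labels says that replicates are separate cultures, so p-values measure the spread between these samples, which may be technical.

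In G1, the origin recognition complex (ORC), CDC6 and CDT1 load the ring of MCM2 to MCM7 onto DNA as an inactive double hexamer, a step called licensing, and geminin (GMNN) blocks CDT1 once S phase has begun. The DBF4-CDC7 kinase, MCM10, CDC45 and the GINS complex then turn the ring into the active helicase. Behind it, RPA coats single-stranded DNA, polymerase alpha with primase starts each strand, replication factor C (RFC) loads the PCNA clamp, polymerases epsilon and delta extend the strands, and FEN1 and LIG1 join the lagging strand pieces. Many of these genes are transcribed at the G1 to S boundary by E2F factors, and pancreatic cancer cells need them for division.

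Library totals ran from 24159424 to 43792811 counts. Levels are given as CPM, counts relative to the library's total scaled by the trimmed mean of M values (TMM), folds as log2 fold changes with their standard error (SE), and a gene is called where edgeR's quasi-likelihood test gave a Benjamini-Hochberg adjusted p under 0.05. Each target fell in its own knockdown, SLC25A1 by 3.51, ACLY by 3.79 and ACO1 by 4.74 on the log2 scale. KRT8, KRT18 and VIM were high in every library, and the keratin KRT19 was present in every library at 48.6 to 145 CPM. The epithelial markers EPCAM and CDH1 had at most 2 counts and KRT7 at most 10. The acinar and islet markers searched were at 0 counts in all 12 libraries. Among fibroblast, leukocyte and endothelial markers the highest level was 0.247 CPM. Some libraries stood apart in the replication genes. siSLC25A1 replicate 1 was the highest of its 3 libraries for 40 of the 44 genes, with a median 0.14 above the other libraries on the log2 scale, while it was the highest for 34.8% of all genes. siACLY replicate 1 was the highest of its group for 37 of the 44 (median 0.12), and siACLY replicate 3 the lowest for 34 (median -0.13). Over all genes the median deviation of these libraries was 0. The G2 and mitosis list and the deoxynucleotide supply list moved with the same libraries: siSLC25A1 replicate 1 was the highest of 3 for 15 of 15 and 9 of 9 of their genes, and siACLY replicate 1 for 14 of 15 and 8 of 9. In the chromatin assembly list siSLC25A1 replicate 1 was the highest for 9 of 9 and siACLY replicate 1 for 7 of 9, and in the list of other replisome genes they were the highest for 22 and 24 of 33. The member counts and medians against siControl are given with and without these libraries. The counts of the other lists were not recomputed without them. siACO1 replicate 3 differed most from its replicates over all genes (chi-square per degree of freedom 10.8 and 11.5, against 2.24 to 5.41 in the other pairs). Its median over the replication genes was near 0 (-0.03), but single genes differed more. The SD of their log2 differences was 0.122 in both of its pairs, against 0.0669 to 0.106 in the other pairs.

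The promoters of 20 of these genes carry a feature that did not enter their choice by symbol. The feature is an E2F-type site, and many of these genes were already known to be transcribed by E2F factors. In RefSeq promoter windows on GRCh38.p14, from 250 bases before to 50 bases after the annotated start, 38 of the 44 had an entry; MCM4, MCM5, GINS4, POLD3, RPA2 and RPA3 did not. The octamers TTTCCCGC, TTTCGCGC, TTTGCCGC and TTTGGCGC, the classical E2F-type site, were searched on both strands; TTTGGCGC and TTTCGCGC can overlap on opposite strands. At least 1 octamer stood in the windows of 20 of the 38 genes (52.6%), against 1090 of 27311 genes with a window (3.99%) and 700 of the 10678 tested genes with a window (6.56%). A CCAAT box stood in 57.9% of the 38 and in 39.7% of all. Of the 27 octamers found, 21 lay between 100 bases before and 50 bases after the start, and the furthest lay at -187 (distances are of the octamer's first base on the gene's strand, negative before the start). A match describes the letters of the window and is not a site of binding. The 250 bases before the start of MCM6 (minus strand, chr2:135876444-135876693) and of PCNA (minus strand, chr20:5126623-5126872) are shown because MCM6 has 4 octamers in overlapping pairs and PCNA had the largest fall of all 44 genes; capitals mark the octamers.
MCM6: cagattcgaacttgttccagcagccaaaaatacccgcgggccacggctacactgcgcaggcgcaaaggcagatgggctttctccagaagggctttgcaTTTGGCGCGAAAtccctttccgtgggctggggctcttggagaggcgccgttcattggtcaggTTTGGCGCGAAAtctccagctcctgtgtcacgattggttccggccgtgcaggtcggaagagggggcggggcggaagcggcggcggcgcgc
PCNA: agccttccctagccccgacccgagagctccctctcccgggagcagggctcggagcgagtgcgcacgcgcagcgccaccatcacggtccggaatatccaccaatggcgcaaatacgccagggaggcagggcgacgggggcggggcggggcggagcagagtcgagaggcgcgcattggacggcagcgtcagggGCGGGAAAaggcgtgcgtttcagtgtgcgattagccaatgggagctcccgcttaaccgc

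The 30 bases around the octamer follow for 12 other genes that the results below turn on, chosen so that genes which fell, rose or did not pass the test can be set side by side. Each is read on the strand on which the octamer (in capitals) runs TTT to CGC. For MCM3 and MCM7 the octamer nearest the start is shown.
CDC6: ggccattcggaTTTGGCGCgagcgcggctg
CDT1: ttcccgccaaaTTTCCCGCgggcgccctgg
GMNN: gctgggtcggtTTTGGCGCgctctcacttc
MCM3: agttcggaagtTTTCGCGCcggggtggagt
MCM7: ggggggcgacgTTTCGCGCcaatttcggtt
ORC3: tgcactcgggaTTTCCCGCgcgccctcgcg
GINS1: ccgctccgcgcTTTGGCGCcgaacaaagct
GINS2: gcggccgccgtTTTCCCGCcacggcgagag
GINS3: attgaaactcgTTTCCCGCgcccggggacg
POLA1: gcggacgcgcgTTTGGCGCcctgtgatgac
POLA2: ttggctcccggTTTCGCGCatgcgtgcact
LIG1: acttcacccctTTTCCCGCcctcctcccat
These sites lie, in GRCh38.p14, for CDC6 at chr17:40287875-40287904 (plus strand, 8 from the start), CDT1 at chr16:88803743-88803772 (minus strand, -35 from the start), GMNN at chr6:24775322-24775351 (plus strand, -80 from the start) and MCM3 at chr6:52284728-52284757 (minus strand, -4 from the start). The next sites are those of MCM7 at chr7:100101388-100101417 (minus strand, -9 from the start), ORC3 at chr6:87590112-87590141 (minus strand, -12 from the start), GINS1 at chr20:25407667-25407696 (minus strand, 6 from the start) and GINS2 at chr16:85688967-85688996 (plus strand, -31 from the start). The remaining sites are GINS3 at chr16:58392455-58392484 (minus strand, -5 from the start), POLA1 at chrX:24693770-24693799 (minus strand, -137 from the start), POLA2 at chr11:65261898-65261927 (plus strand, -53 from the start) and LIG1 at chr19:48170440-48170469 (minus strand, -114 from the start).

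**Figure D1:**
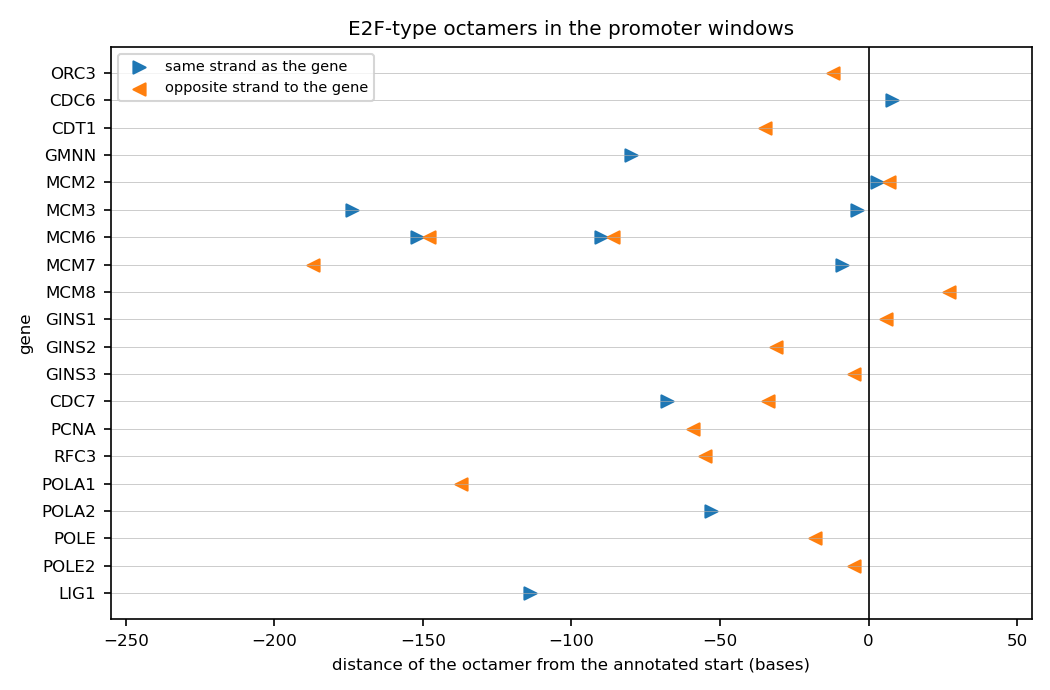
Position of each E2F-type octamer (x axis, distance in bases from the annotated start, which is the vertical line) in the 20 genes that hold one (y axis, ordered by role). Right-pointing marks are octamers on the gene's strand and left-pointing marks those on the opposite strand, and 21 of the 27 lie between 100 bases before and 50 bases after the start.

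Genes with and without an octamer were both among those called lower. Of the 20 genes with an octamer, 12 were called lower in siACLY and 11 in siACO1, where 18.3% and 19.3% of all tested genes were called lower. Their medians were -0.21 and -0.18. Of the 18 with a window but no octamer, 11 were called lower in siACLY and 6 in siACO1, with medians of -0.17 and -0.13. ORC3, which holds an octamer 12 bases before its start, rose in siACO1. GINS2 and POLA2, which hold 1 as well, and CDC7, which holds 2, did not pass the test in any knockdown against siControl. The counts of POLA2 are uncertain, as given below. The difference between genes with and without an octamer was not tested.

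As a group, the replication genes stood lower in siACLY and in siACO1 and near siControl in siSLC25A1. In siACLY, 27 of the 44 were called lower and 2 higher against siControl, where 18.3% and 18.4% of all tested genes were called lower and higher, and the median log2 fold change was -0.18 (all genes 0.01). In siACO1, 20 were called lower and 3 higher, where 19.3% and 17.8% of all tested genes were, and the median was -0.17 (all genes 0.01). In siSLC25A1, 5 were called higher and 1 lower, where 10.3% and 9.27% of all tested genes were, so the share called higher (11.4%) was near that of all genes. Its median was 0.06 (all genes 0.00). The 3 comparisons share the siControl libraries. The members were chosen with earlier results of these data known, so these counts describe the list and do not test it. These are bulk libraries, in which fewer cells in S phase and less transcript per cell cannot be told apart.

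Single libraries bear on these counts. Without siSLC25A1 replicate 1, the siSLC25A1 median was 0.01, with 2 genes called higher and 5 lower. The siSLC25A1 calls numbered 2, 3 and 3 without siControl replicate 1, 2 or 3, and 11 without siACO1 replicate 3. The calls over all tested genes moved as well: 3173 in siSLC25A1 with all libraries, and 2319 to 4131 with 1 left out. Without siACLY replicate 1 the siACLY median was -0.24 with 28 called lower, and without siACLY replicate 3 it was -0.15 with 22 called lower. Without siACO1 replicate 3 the siACO1 median was -0.14 with 19 called lower. All genes called numbered 5944 in siACLY and 6008 in siACO1, and 5002 to 6736 and 5097 to 6195 with 1 library left out. With library totals in place of TMM, which moved the median of all genes to 0.051 in siACLY and 0.055 in siACO1, 21 and 13 genes were called lower. Under library totals 61.0% of all called genes were higher in siACLY and 59.5% in siACO1, against 50.1% and 47.9% with TMM. All genes called lower numbered 2292 and 2442 under library totals, against 2967 and 3132 with TMM.

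**Figure D2:**
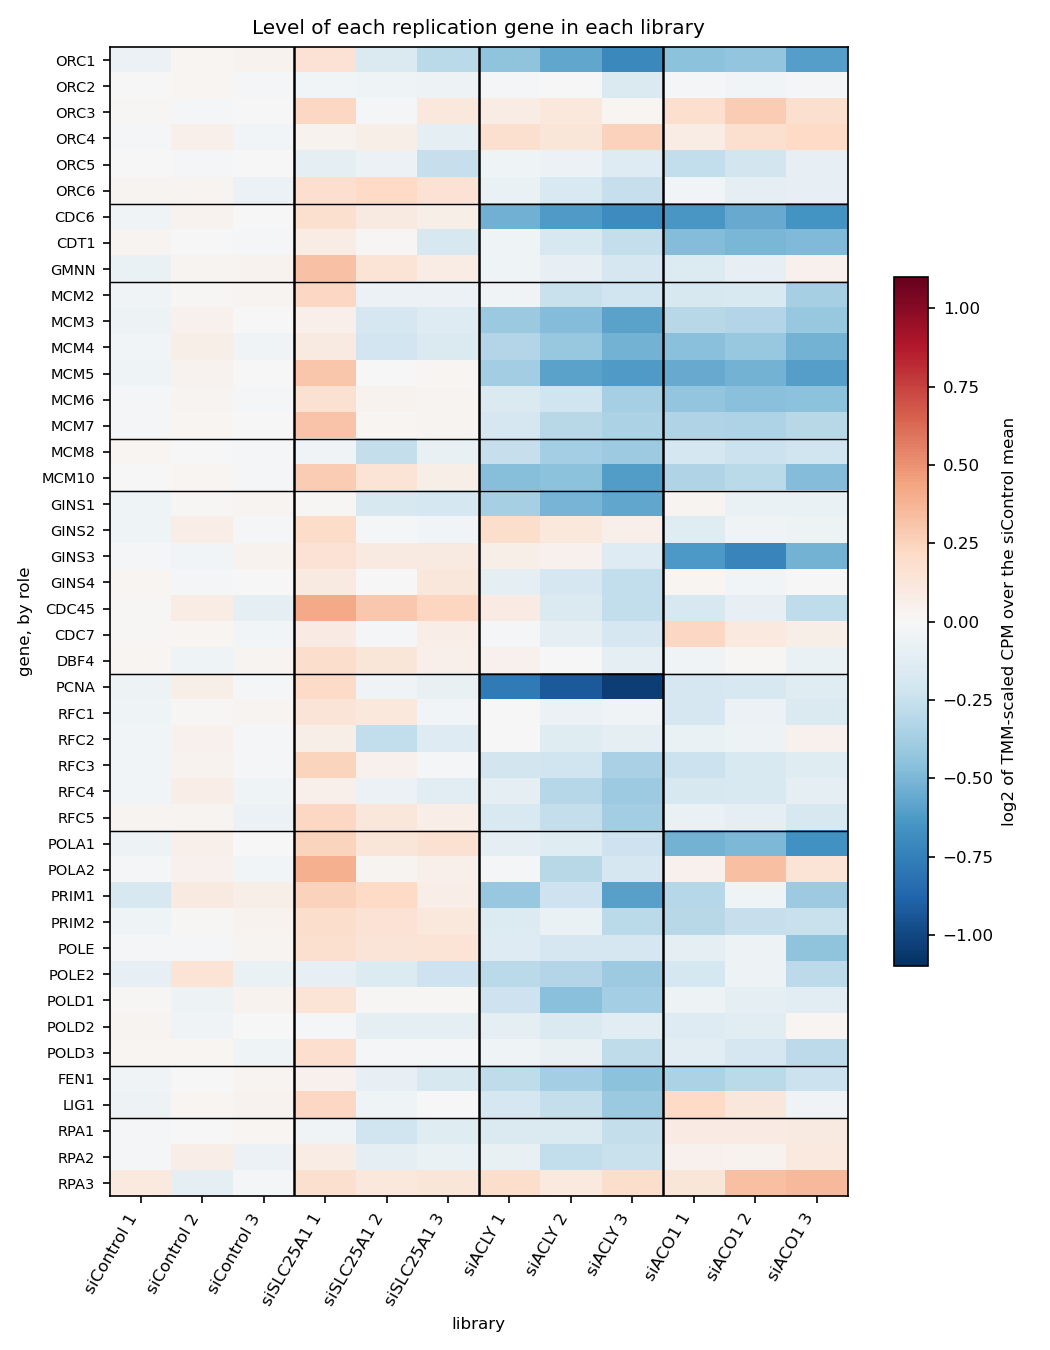
Level of each of the 44 genes (rows, grouped by role) in each of the 12 libraries (columns), as the log2 of its TMM-scaled CPM over the siControl mean; red is higher and blue lower. PCNA in the siACLY libraries is dark blue, as are GINS3 and CDC6 in the siACO1 libraries, and siSLC25A1 replicate 1 is the highest of its group for 40 of the 44 genes.

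The summed level of the 44 genes was 4327, 4452 and 4375 CPM in the siControl libraries, 4876, 4307 and 4297 in siSLC25A1, 3871, 3638 and 3492 in siACLY, and 3799, 3838 and 3767 in siACO1. All siACLY and siACO1 libraries lay below all siControl libraries, whereas siSLC25A1 had 1 library above and 2 below them. The means were 4385 ± 63.1 (SD, n = 3) in siControl, 4493 ± 331 in siSLC25A1, 3667 ± 191 in siACLY and 3801 ± 35.6 in siACO1.

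Against siSLC25A1, most of the genes again stood lower. In siACLY 29 were called lower and 1 higher against siSLC25A1, where 17.5% and 16.3% of all genes were (median -0.29). In siACO1 26 were called lower and 2 higher, where 21.8% and 20.3% of all genes were (median -0.22). The highest siSLC25A1 library, replicate 1, enters both comparisons. Without it, siACLY had 24 called lower and 1 higher, and siACO1 had 22 lower and 4 higher. All genes called against siSLC25A1 numbered 5472 in siACLY and 6823 in siACO1. With 1 library left out these ranged from 4658 to 6332 and from 6040 to 6770. siACO1 against siACLY called 10 replication genes higher (22.7%) and 5 lower (11.4%), where 20.7% and 21.4% of all genes were, so the group as a whole was not set apart between those knockdowns. The 15 genes are described with their roles.

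Origin recognition was split. ORC1, the ATP-binding subunit whose level follows the cell cycle, stood at 29.6, 31.5 and 31.9 CPM in siControl, 34.7, 27.8 and 25.2 in siSLC25A1, 22.8, 20.8 and 19 in siACLY, and 22.7, 22.9 and 20.4 in siACO1. All siACLY and siACO1 libraries were below all siControl libraries, and the siSLC25A1 libraries overlapped them. ORC1 fell by 0.56 (SE 0.09, adjusted p = 3.85e-05) in siACLY and by 0.49 (SE 0.09, adjusted p = 0.000161) in siACO1. The other subunits of the complex moved by 0.22 at most. ORC4, another subunit of the ORC ring, stood at 42.0, 44.4 and 41.7 in siControl, 48.2, 46.9 and 51.0 in siACLY, and 45.2, 48.2 and 49.8 in siACO1. Every library of both knockdowns was above siControl, and ORC4 rose by 0.19 (SE 0.06, adjusted p = 0.00861) in siACLY and by 0.16 (SE 0.06, adjusted p = 0.024) in siACO1. ORC3, a core subunit, was between 49.7 and 50.5 in siControl and at 57.0, 61.0 and 56.8 in siACO1, where it rose by 0.22 (SE 0.05, adjusted p = 0.00236). Against siACLY it gave 0.14 (adjusted p = 0.0408), a call lost in 7 of 19 alternatives, among them without siControl replicate 1, siACLY replicate 1 or 3, or siACO1 replicate 2 (0.11 to 0.16). ORC5, also a core subunit, fell by 0.18 in siACO1 (adjusted p = 0.0109), a call lost without siACO1 replicate 1 and with library totals (-0.24 to -0.14). ORC2 stayed between -0.05 and -0.02.

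ORC6, the subunit that helps to bring MCM rings to DNA, differed between siSLC25A1 and siACLY. It stood at 87.6, 87.7 and 81.8 CPM in siControl, 97.6, 99.8 and 95.5 in siSLC25A1, 81.5, 76.5 and 71.7 in siACLY, and 83.7, 79.9 and 80.7 in siACO1. All siSLC25A1 libraries were above siControl and all siACLY libraries below it, siACLY replicate 1 by little, and siACO1 overlapped siControl. ORC6 rose by 0.19 in siSLC25A1 (SE 0.05, adjusted p = 0.00546) and fell by 0.16 in siACLY (SE 0.05, adjusted p = 0.00934). siACLY against siSLC25A1 gave -0.35 (adjusted p = 1.69e-06). The rise was not called without siControl replicate 3 (0.16 to 0.20 over the 19 alternatives), and the fall not without siACLY replicate 3 or with library totals (-0.22 to -0.12). The ORC4 rise in siACLY was not called without siControl replicate 3 or siACLY replicate 3 (0.15 to 0.23), and that in siACO1 not without siControl replicate 1 or 3 or siACO1 replicate 2 or 3 (0.13 to 0.21).

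Of the loading factors, CDC6 fell in siACLY and siACO1, whereas CDT1 fell more in siACO1. CDC6, the ATPase that joins ORC to recruit the helicase, stood at 86.2, 91.4 and 88.7 CPM in siControl, 100, 95 and 92.9 in siSLC25A1, 61.4, 57.6 and 54.9 in siACLY, and 56.8, 60.4 and 56.4 in siACO1. The siACLY and siACO1 libraries were all below siControl, without overlap, and the siSLC25A1 libraries all above it. CDC6 fell by 0.61 in siACLY (SE 0.05, adjusted p = 7.56e-11) and by 0.62 in siACO1 (SE 0.05, adjusted p = 5.5e-11), and siSLC25A1 gave 0.11 (adjusted p = 0.103). The difference between siACO1 and siACLY was -0.01 (SE 0.05, adjusted p = 0.936). CDC6 is on chromosome 17 (chr17:40287633-40304657, plus strand, GRCh38), and its gene model overlaps no other gene.

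CDT1, which brings MCM2 to MCM7 to the origin, stood at 95.8, 93.3 and 92.1 CPM in siControl, 99.2, 94.5 and 83.1 in siSLC25A1, 90.9, 82.8 and 78.3 in siACLY, and 67.2, 66.1 and 66.8 in siACO1. The siACO1 libraries were the lowest 3 of all 12 and lay close together. CDT1 fell by 0.49 in siACO1 (SE 0.06, adjusted p = 5.56e-08) and by 0.16 in siACLY (SE 0.06, adjusted p = 0.0286), a call lost with library totals and without siControl replicate 1 or 2 or siACLY replicate 2 or 3 (-0.23 to -0.11 over the 19 alternatives). The knockdowns differed by -0.34 (siACO1 against siACLY, SE 0.06, adjusted p = 1.77e-05).

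GMNN, the inhibitor of CDT1, stood at 40.8, 44 and 44.1 CPM in siControl, 53.7, 47.8 and 45.6 in siSLC25A1, 41.6, 40.4 and 37.9 in siACLY, and 38.8, 40.4 and 44.3 in siACO1. Its siSLC25A1 libraries were all above siControl, and the other groups overlapped siControl. GMNN rose by 0.19 in siSLC25A1 (SE 0.06, adjusted p = 0.0286), a call lost without siSLC25A1 replicate 1 and without siControl replicate 1 or 2 (0.12 to 0.24). It gave -0.10 in siACLY (adjusted p = 0.222) and -0.06 in siACO1 (adjusted p = 0.492). The ratio of CDT1 to GMNN CPM was 2.35, 2.12 and 2.09 in siControl and 1.73, 1.64 and 1.51 in siACO1, with no overlap. It was 1.85, 1.98 and 1.82 in siSLC25A1 and 2.19, 2.05 and 2.07 in siACLY, the latter overlapping siControl. These ratios, which were not tested, are of levels that were not scaled for gene length.

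The MCM2 to MCM7 ring fell in siACLY and siACO1. In siACLY 5 of its 6 genes were called lower (median -0.35), and in siACO1 6 of 6 (median -0.40), while the values in siSLC25A1 ranged from -0.08 to 0.13. The summed level of the 6 genes was 1557, 1630 and 1582 CPM in siControl, 1838, 1525 and 1545 in siSLC25A1, 1348, 1244 and 1185 in siACLY, and 1235, 1239 and 1194 in siACO1. All siACLY and siACO1 libraries were below siControl, and the 3 siACO1 libraries lay close together.

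MCM5, a subunit at the gate through which the ring opens, stood at 139, 148 and 144 CPM in siControl, 177, 144 and 146 in siSLC25A1, 110, 95.7 and 93.2 in siACLY, and 97.7, 100 and 94.5 in siACO1. It had the largest fall of the ring in both knockdowns, by 0.52 in siACLY (SE 0.07, adjusted p = 5.18e-05) and by 0.56 in siACO1 (SE 0.08, adjusted p = 2.58e-05), with no overlap. MCM2, its partner at that gate, stood at 179, 186 and 188 in siControl, 216, 176 and 176 in siSLC25A1, 179, 156 and 158 in siACLY, and 163, 164 and 143 in siACO1. Its siACLY replicate 1 was just under the lowest siControl library. MCM2 had the smallest fall, by 0.24 in siACO1 (SE 0.08, adjusted p = 0.0386), and gave -0.17 in siACLY (adjusted p = 0.134). The call was lost with library totals and without siControl replicate 1, 2 or 3 or siACO1 replicate 3 (-0.28 to -0.17). Of its exon bases 23.6% overlap the antisense gene AC023593.1, so its counts are uncertain. The ratio of MCM5 to MCM2 CPM went from 0.779 ± 0.0144 (SD, n = 3) in siControl to 0.608 ± 0.0138 in siACLY and 0.624 ± 0.034 in siACO1, with 0.822 ± 0.00252 in siSLC25A1.

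MCM3, another ring subunit, stood at 213, 229 and 221 CPM in siControl, 230, 195 and 200 in siSLC25A1, 167, 159 and 147 in siACLY, and 179, 177 and 166 in siACO1. MCM4, a ring subunit that the DBF4-CDC7 kinase phosphorylates, stood at 313, 335 and 312 in siControl, 342, 277 and 286 in siSLC25A1, 256, 240 and 223 in siACLY, and 232, 240 and 223 in siACO1. Neither siACLY nor siACO1 overlapped siControl for these subunits. MCM3 fell by 0.48 (SE 0.06) in siACLY and by 0.35 (SE 0.06) in siACO1, and MCM4 by 0.41 (SE 0.07) and 0.46 (SE 0.07). The largest adjusted p of these 4 values was 0.000184.

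MCM6, the gene with the paired octamers shown above, stood at 198, 204 and 198 CPM in siControl, 225, 206 and 204 in siSLC25A1, 179, 172 and 155 in siACLY, and 148, 145 and 146 in siACO1. The siACO1 libraries lay below every siACLY library. MCM6 fell by 0.24 in siACLY (SE 0.05, adjusted p = 0.000121) and by 0.45 in siACO1 (SE 0.05, adjusted p = 7.01e-09). It was the 1 gene of the ring called between the knockdowns (siACO1 against siACLY -0.21, adjusted p = 0.000593). MCM7 stood at 515, 527 and 520 in siControl, 647, 527 and 533 in siSLC25A1, 458, 421 and 408 in siACLY, and 415, 412 and 422 in siACO1, and fell by 0.28 (adjusted p = 0.00127) and 0.32 (adjusted p = 0.000324). Its siSLC25A1 replicate 1 stood well above the other siSLC25A1 libraries.

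Outside the ring, MCM10, which helps to activate the helicase and recruits polymerase alpha, stood at 44.9, 45.8 and 44.4 CPM in siControl, 54.8, 49.9 and 47.1 in siSLC25A1, 32.5, 33.0 and 29.4 in siACLY, and 35.7, 36.7 and 32.4 in siACO1. All siACLY and siACO1 libraries lay below siControl and all siSLC25A1 libraries above it. MCM10 fell by 0.51 in siACLY (SE 0.06, adjusted p = 1.74e-07) and by 0.37 in siACO1 (SE 0.06, adjusted p = 2.31e-05). Its rise by 0.17 in siSLC25A1 (adjusted p = 0.048) was lost in 11 of 19 alternatives, among them without any of the siControl libraries, siSLC25A1 replicate 1 or 2, siACLY replicate 1 or 2, or siACO1 replicate 1 (0.11 to 0.22). MCM8, a helicase of homologous recombination rather than of the ring, fell by 0.33 in siACLY (adjusted p = 0.000367) and by 0.22 in siACO1 (adjusted p = 0.0155), the latter not called without siControl replicate 1 or with library totals (-0.23 to -0.17).

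**Figure D3:**
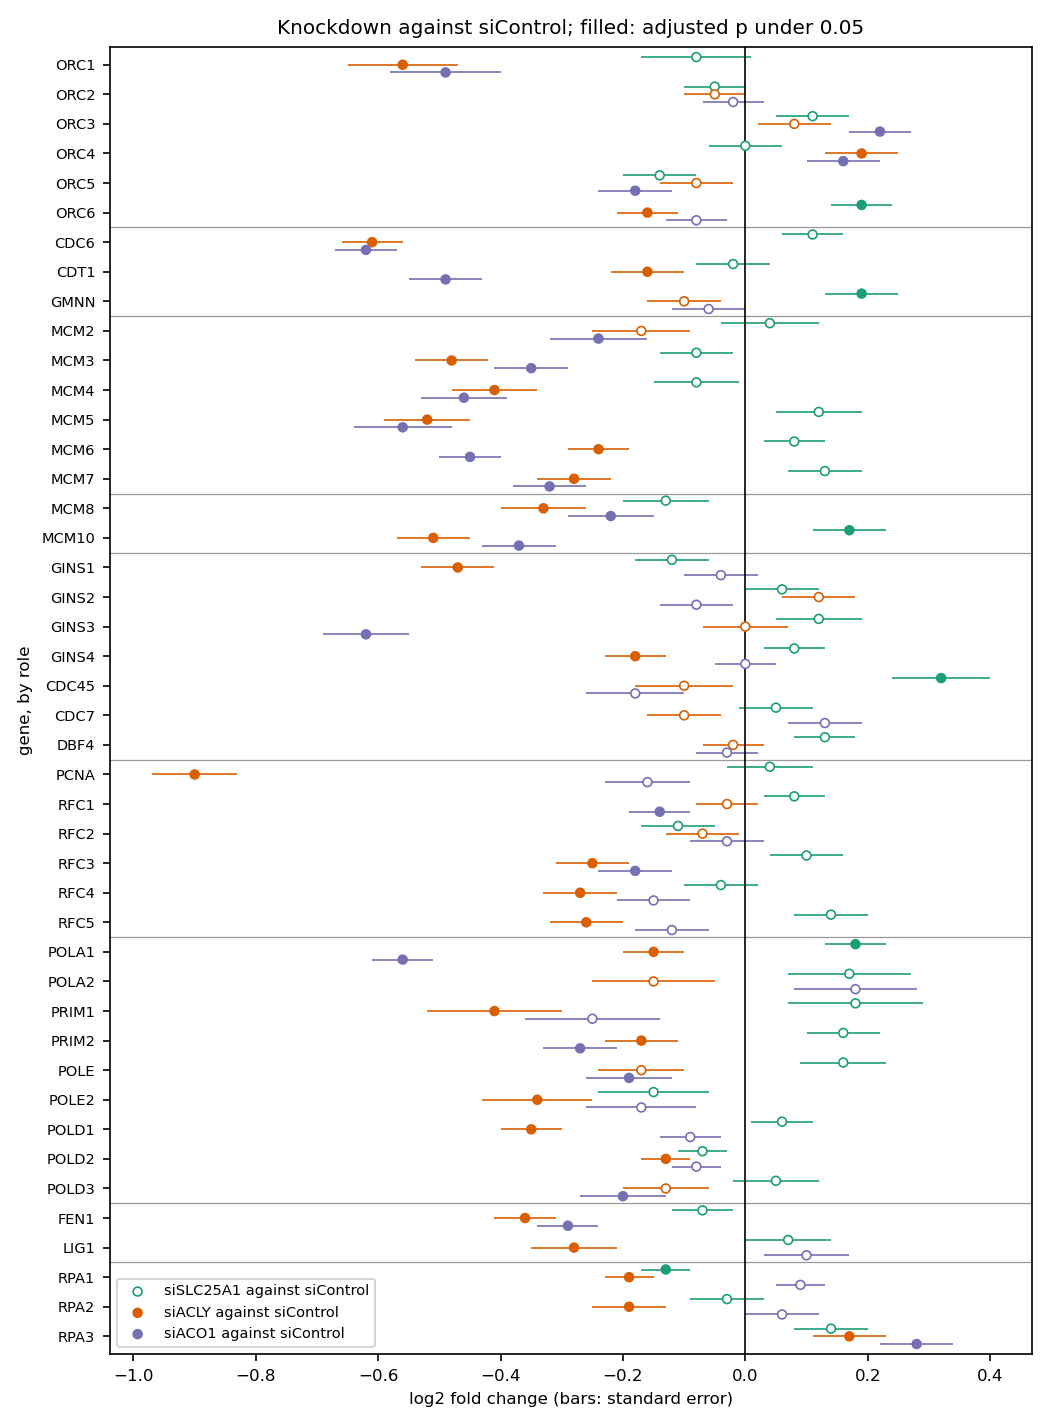
Log2 fold change against siControl (x axis, bars are standard errors) of each of the 44 genes (y axis, grouped by role) in siSLC25A1 (green), siACLY (orange) and siACO1 (purple). Filled points are called at an adjusted p under 0.05. CDC6 and MCM5 have orange and purple points together on the left, whereas PCNA and GINS1 have the orange point apart and GINS3 and POLA1 the purple one.

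The helicase activators changed little as a class (medians -0.10 in siACLY and -0.04 in siACO1). The GINS genes, whose products form 1 complex of 4 subunits, were not all called in the same knockdown. GINS1 and GINS4 fell in siACLY, GINS3 fell in siACO1, and GINS2 was not called in any knockdown against siControl. GINS1 stood at 48.6, 50.9 and 51.4 CPM in siControl, 50.7, 44.5 and 43.9 in siSLC25A1, 39.0, 35.2 and 33.9 in siACLY, and 51.3, 47.7 and 47.8 in siACO1. Only its siACLY libraries lay apart from siControl. GINS1 fell by 0.47 in siACLY (SE 0.06, adjusted p = 3.97e-07) and gave -0.04 in siACO1 (adjusted p = 0.64), a difference between the knockdowns of 0.43 (SE 0.06, adjusted p = 1.27e-06).

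GINS3 showed the reverse. It stood at 21.5, 21.2 and 22.2 CPM in siControl, 24.2, 23.1 and 23.1 in siSLC25A1, 22.6, 22.4 and 19.6 in siACLY, and 14, 13.1 and 15.1 in siACO1. Its siACO1 libraries were the lowest 3 of the 12, and siACLY overlapped siControl. GINS3 fell by 0.62 in siACO1 (SE 0.07, adjusted p = 1.1e-07) and gave 0.00 in siACLY (SE 0.07, adjusted p = 0.995), with -0.62 between the knockdowns (SE 0.07, adjusted p = 8.35e-08). These GINS1 and GINS3 calls held in all 19 alternatives. The ratio of GINS1 to GINS3 CPM was 2.26, 2.40 and 2.31 in siControl, 1.72, 1.57 and 1.73 in siACLY, and 3.65, 3.63 and 3.17 in siACO1. The 3 groups did not overlap, and siSLC25A1 (2.10, 1.93 and 1.90) lay between siControl and siACLY. The ratio was not tested, and it restates the falls of GINS1 and GINS3 given above.

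GINS2 passed in neither knockdown against siControl (0.12 in siACLY, adjusted p = 0.0952, and -0.08 in siACO1, adjusted p = 0.329), but siACO1 against siACLY gave -0.20 (adjusted p = 0.00634), which was not called without siACLY replicate 1 (-0.23 to -0.16). GINS4 fell by 0.18 in siACLY (adjusted p = 0.00325) and gave 0.00 in siACO1 (adjusted p = 0.952), and siACO1 was higher than siACLY by 0.18 (adjusted p = 0.0035). An antisense gene, AC009630.2, covers 23.6% of the exon bases of GINS4, whose counts are therefore uncertain.

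CDC45, the partner of GINS and MCM in the active helicase, stood at 47.9, 50.3 and 44.3 CPM in siControl, 63.3, 58.4 and 55.8 in siSLC25A1, 50.7, 42.6 and 39.3 in siACLY, and 42.1, 44.5 and 39.2 in siACO1. All siSLC25A1 libraries lay above siControl, and the other groups overlapped it. CDC45 had the largest rise of the 44 genes in siSLC25A1, by 0.32 (SE 0.08, adjusted p = 0.00606), and it was the 1 call of that knockdown that held in all 19 alternatives. It gave -0.10 in siACLY (adjusted p = 0.372) and -0.18 in siACO1 (adjusted p = 0.0773). The kinase genes CDC7 and DBF4 passed against siControl in no knockdown, with values from -0.10 to 0.13. CDC7 was higher in siACO1 than in siACLY by 0.23 (adjusted p = 0.0031). DBF4 shares 23.9% of its 31-base stretches with other genes, most of them with DBF4P1, so its counts are uncertain.

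PCNA showed the largest difference between siACO1 and siACLY of the 44 genes. PCNA, the ring that holds polymerases on DNA, stood at 185, 201 and 190 CPM in siControl, 222, 187 and 181 in siSLC25A1, 112, 101 and 93.9 in siACLY, and 169, 170 and 175 in siACO1. The siACLY libraries were the lowest 3 and the siACO1 libraries lay just below siControl, without overlap. PCNA fell by 0.90 in siACLY (SE 0.07, adjusted p = 4.16e-08), the largest change of the 44 genes, and gave -0.16 in siACO1 (SE 0.07, adjusted p = 0.0791; called in 7 of 19 alternatives). siACO1 was higher than siACLY by 0.74 (SE 0.07, adjusted p = 2.62e-07), which held in all 19. PCNA is on chromosome 20 (chr20:5114953-5126626, minus strand, GRCh38).

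The RFC genes, whose products open the PCNA ring, changed less. RFC3 stood at 81.3, 85.2 and 81.9 CPM in siControl, 98.3, 85.8 and 82.1 in siSLC25A1, 72.1, 71.2 and 64.6 in siACLY, and 70.4, 73.6 and 75.5 in siACO1. Both knockdowns lay below siControl throughout. RFC3 fell by 0.25 in siACLY (SE 0.06, adjusted p = 0.000643) and by 0.18 in siACO1 (SE 0.06, adjusted p = 0.0135), the latter lost with library totals and without siControl replicate 2 or siACO1 replicate 1 (-0.20 to -0.13). RFC4 fell by 0.27 and RFC5 by 0.26 in siACLY (adjusted p = 0.00107 and 0.00203), and RFC1, the large subunit, by 0.14 in siACO1 (adjusted p = 0.0328). The RFC1 call was lost in 5 of 19 alternatives, among them without siControl replicate 2 or 3 or siACO1 replicate 1 (-0.18 to -0.09). RFC2 gave values from -0.11 to -0.03, none called. The ratio of PCNA to RFC1 CPM was 2.41 ± 0.0764 (SD, n = 3) in siControl, 2.34 ± 0.18 in siSLC25A1, 1.31 ± 0.0961 in siACLY and 2.37 ± 0.119 in siACO1.

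**Figure D4:**
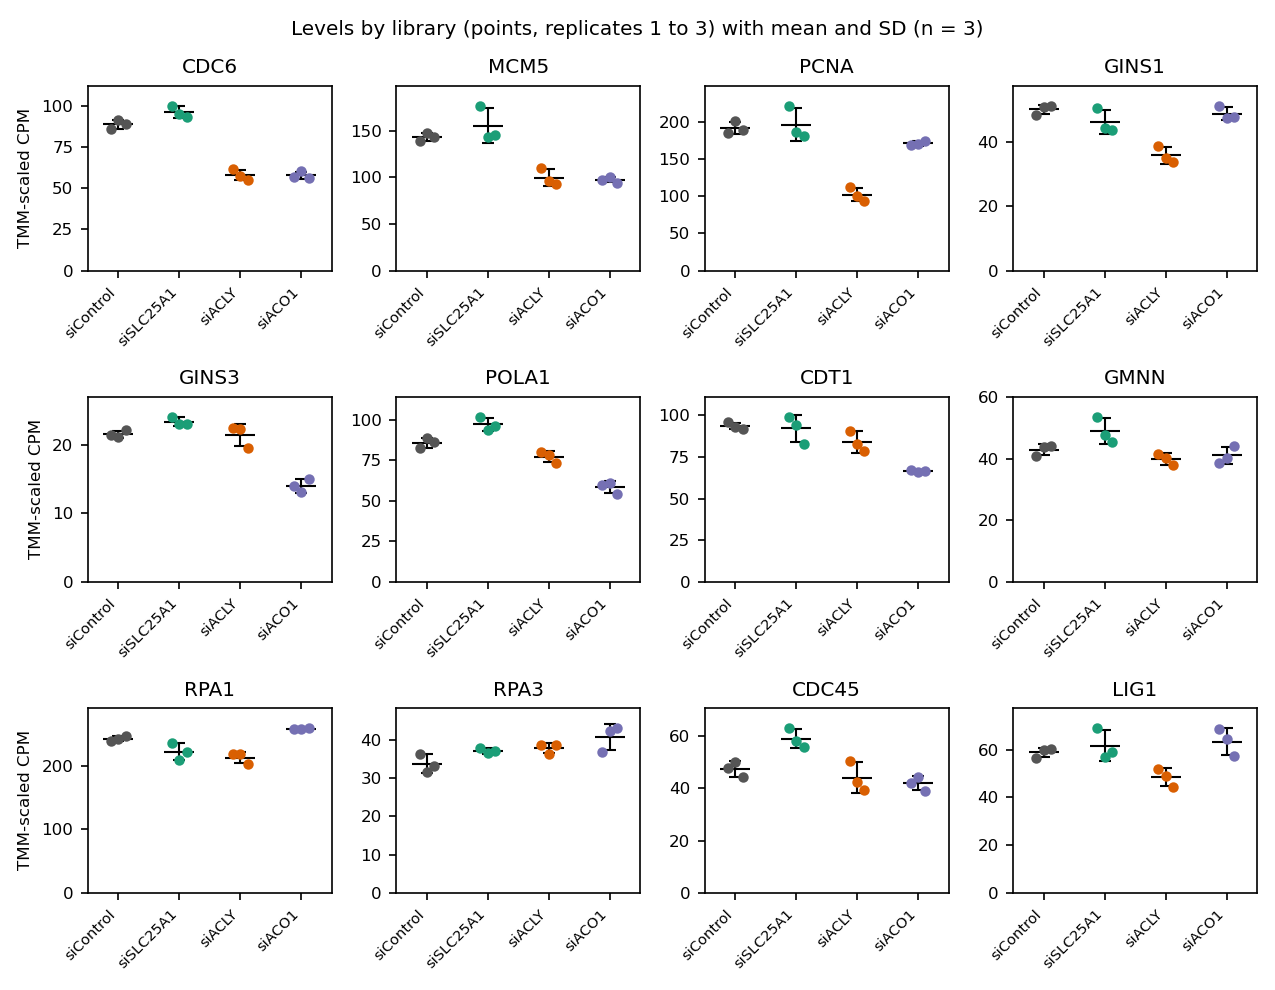
TMM-scaled CPM (y axis, from 0) of 12 replication genes in each group (x axis); points are replicates 1 to 3 from left to right, and bars are the mean and SD (n = 3). CDC6 and MCM5 are low in siACLY and siACO1, PCNA, GINS1 and LIG1 in siACLY, and GINS3, POLA1 and CDT1 in siACO1, while CDC45 is highest in siSLC25A1.

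Among the polymerases, POLA1, the catalytic subunit of polymerase alpha, had the largest fall in siACO1. It stood at 82.5, 89.0 and 86.1 CPM in siControl, 102, 94.1 and 96.2 in siSLC25A1, 80.2, 78.3 and 73.3 in siACLY, and 60, 61.0 and 54.2 in siACO1. The 4 groups did not overlap. POLA1 fell by 0.56 in siACO1 (SE 0.05, adjusted p = 9.44e-10) and by 0.15 in siACLY (SE 0.05, adjusted p = 0.0206), and rose by 0.18 in siSLC25A1 (SE 0.05, adjusted p = 0.0106). The fall in siACLY was lost with library totals and without siControl replicate 2 or siACLY replicate 3 (-0.19 to -0.11), and the rise without siControl replicate 1 or siSLC25A1 replicate 1 (0.15 to 0.21). siACO1 gave -0.41 against siACLY (adjusted p = 2.22e-07) and -0.74 against siSLC25A1 (adjusted p = 1.81e-12).

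POLA2, the regulatory subunit, was between 12.8 and 13.5 CPM in siControl and at 13.5, 16.5 and 14.5 in siACO1, and passed against siControl in no knockdown (0.18 in siACO1, SE 0.10, adjusted p = 0.15). siACO1 was higher than siACLY by 0.33 (adjusted p = 0.00753), which was not called without siACO1 replicate 2 (0.25 to 0.43). The ratio of POLA1 to POLA2 CPM was 6.55 ± 0.184 (SD, n = 3) in siControl, 6.66 ± 0.65 in siSLC25A1, 6.64 ± 0.644 in siACLY and 3.96 ± 0.425 in siACO1. The gene AP000944.2 overlaps 35.1% of the exon bases of POLA2, whose counts are uncertain.

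The primase genes PRIM1 and PRIM2, which lay the RNA primer, were also lower. PRIM1 stood at 9.49, 11.5 and 11.2 CPM in siControl, 12.8, 12.5 and 11.3 in siSLC25A1, 8.02, 9.15 and 7.09 in siACLY, and 8.61, 10.4 and 8.12 in siACO1, so siACLY was below siControl throughout and siACO1 overlapped it. PRIM1 fell by 0.41 in siACLY (SE 0.11, adjusted p = 0.00389) and gave -0.25 in siACO1 (adjusted p = 0.0786). PRIM2 fell by 0.27 in siACO1 (adjusted p = 0.00132) and by 0.17 in siACLY (adjusted p = 0.0307), the latter lost in 6 of 19 alternatives, among them without siControl replicate 2 or 3 or siACLY replicate 1 or 3 (-0.23 to -0.12). Both have uncertain counts, since 21.6% of the exon bases of PRIM1 overlap AC117378.1 and 22.9% of the 31-base stretches of PRIM2 occur in other genes.

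Polymerase delta extends the lagging strand and polymerase epsilon the leading strand. POLD1, the catalytic subunit of delta, was between 108 and 115 CPM in siControl and at 95.4, 81.3 and 86.4 in siACLY, where it fell by 0.35 (SE 0.05, adjusted p = 3.8e-06). It gave -0.09 in siACO1 (adjusted p = 0.16), and the knockdowns differed by 0.25 (adjusted p = 0.000204). POLD2 fell by 0.13 in siACLY (adjusted p = 0.0225) and POLD3 by 0.20 in siACO1 (adjusted p = 0.0226), both accessory subunits. Both calls were lost with library totals. That of POLD2 was also lost without siControl replicate 1 or 3 or siACLY replicate 2 (-0.15 to -0.08), and that of POLD3 without siControl replicate 1 or 2 or siACO1 replicate 3 (-0.24 to -0.15). POLE2, an accessory subunit of epsilon, fell by 0.34 in siACLY (adjusted p = 0.00299). POLE, its catalytic subunit, stood at 158, 164 and 125 in siACO1 against 168, 169 and 174 in siControl. Its fall by 0.19 (adjusted p = 0.0361) was lost in 7 of 19 alternatives, among them without siControl replicate 1, 2 or 3, siSLC25A1 replicate 1 or siACO1 replicate 3, and ranged from -0.27 to -0.08 over them.

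On the lagging strand, FEN1, the nuclease that trims flaps, stood at 93.9, 96.8 and 98.0 CPM in siControl, 99.6, 90.3 and 85.2 in siSLC25A1, 79.2, 74.4 and 70.2 in siACLY, and 75.7, 78.3 and 81.5 in siACO1. Neither siACLY nor siACO1 overlapped siControl, and FEN1 fell by 0.36 (SE 0.05, adjusted p = 2.79e-06) and 0.29 (SE 0.05, adjusted p = 5.67e-05). LIG1, the ligase that seals the pieces, stood at 56.7, 59.7 and 60.4 in siControl, 69.2, 56.9 and 59.1 in siSLC25A1, 52.0, 49.1 and 44.3 in siACLY, and 68.7, 64.3 and 57.3 in siACO1. Its siACLY libraries were the lowest 3 of the 12. LIG1 fell by 0.28 in siACLY (SE 0.07, adjusted p = 0.00613) and gave 0.10 in siACO1 (adjusted p = 0.291), a difference of 0.38 between them (SE 0.07, adjusted p = 0.000322).

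The subunits of RPA, the single-strand binding complex, differed among themselves. RPA1, the large subunit, stood at 240, 244 and 248 CPM in siControl, 237, 210 and 222 in siSLC25A1, 219, 219 and 203 in siACLY, and 259, 259 and 261 in siACO1. Its siACLY libraries were below and its siACO1 libraries above all siControl libraries. RPA1 fell by 0.19 in siACLY (SE 0.04, adjusted p = 0.000746) and by 0.13 in siSLC25A1 (SE 0.04, adjusted p = 0.0328), and gave 0.09 in siACO1 (adjusted p = 0.106). The fall in siSLC25A1 was lost without siControl replicate 1, 2 or 3 or siSLC25A1 replicate 2 or 3 (-0.18 to -0.09). siACO1 was higher than siACLY by 0.28 (SE 0.04, adjusted p = 4.1e-06). RPA2, the middle subunit, fell by 0.19 in siACLY (adjusted p = 0.0119; lost with library totals and without siControl replicate 2 or siACLY replicate 2 or 3, -0.26 to -0.15) and was higher in siACO1 than in siACLY by 0.25 (adjusted p = 0.00097).

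RPA3, the small subunit, had the largest rise of the 44 genes in siACO1. It stood at 36.5, 31.6 and 33.3 CPM in siControl, 38.1, 36.6 and 37.1 in siSLC25A1, 38.7, 36.4 and 38.7 in siACLY, and 37.0, 42.5 and 43.3 in siACO1. siControl replicate 1 was the highest control library and overlapped the siACLY libraries. RPA3 rose by 0.28 in siACO1 (SE 0.06, adjusted p = 0.000763) and by 0.17 in siACLY (SE 0.06, adjusted p = 0.037). The latter was lost in 8 of 19 alternatives, among them without siControl replicate 2 or 3, siSLC25A1 replicate 2 or 3, or siACLY replicate 1 or 3 (0.12 to 0.23).

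Per kilobase of the longest coding transcript, the siControl levels spanned 3.08 to 169 CPM per kb. MCM7 (169 ± 2.00, SD, n = 3), POLD2 (145 ± 3.33) and PCNA (141 ± 5.96) were the highest, and POLD2 and PCNA overlapped. The ring genes MCM4 (76.4 ± 3.10), MCM3 (68.8 ± 2.49), MCM6 (53.5 ± 0.994), MCM2 (50.9 ± 1.25) and MCM5 (40.7 ± 1.34) followed at a lower level than MCM7. In siACLY MCM7 was at 139 ± 8.32 and PCNA at 75.3 ± 6.61, and in siACO1 they were at 135 ± 1.72 and 126 ± 2.27. Among the loading factors, GMNN (34 ± 1.5) and CDT1 (28.9 ± 0.59) were above CDC6 (18.5 ± 0.54). ORC6 (50.4 ± 1.97) was the highest ORC gene and ORC4 (6.36 ± 0.221) the lowest. POLA2 (3.5 ± 0.0919) and MCM8 (3.08 ± 0.0426) were the lowest of the 44. The lengths are of GENCODE release 29, and the transcript used by the cells was not measured.

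Other genes of the pathway were read from 8 lists. Their counts are to be read beside the shares of all tested genes called lower and higher. These were 18.3% and 18.4% in siACLY, 19.3% and 17.8% in siACO1, and 9.27% and 10.3% in siSLC25A1. In the list of 33 other replisome and fork genes, 10 fell and 2 rose in siACLY (median -0.12). In siACO1 14 fell and 3 rose (median -0.13). In siSLC25A1 3 rose (median 0.06), a share (9.09%) near that of all genes. siACO1 replicate 3 was the lowest of its group for 21 of the 33 (median -0.11) and siACLY replicate 3 for 22 (median -0.08), and their part in these counts was not tested. CLSPN, the checkpoint mediator claspin, fell by 0.30 in siACLY and by 0.46 in siACO1, and EXO1, an exonuclease, by 0.39 and 0.40. TIMELESS, of the fork protection complex, was 1 of the 2 that rose in siACLY: it rose by 0.24 there and by 0.20 in siSLC25A1, and fell by 0.15 in siACO1 (adjusted p from 7.67e-05 to 0.00822). The last was not called with library totals (-0.18 to -0.10). RECQL4, a helicase of replication initiation, fell by 0.44 in siACLY (adjusted p = 7.25e-09) and gave -0.04 in siACO1 (adjusted p = 0.468).

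Genes that assemble chromatin on new DNA were mostly lower as well: 7 of the 9 tested were called lower in siACLY (median -0.25) and 8 in siACO1 (median -0.33), and 1 was called higher in siSLC25A1 (median -0.07). siACLY replicate 3 was the lowest of its group for 7 of the 9 and siACO1 replicate 3 for 6. CHAF1A, the large subunit of the CAF-1 chaperone, stood at 82.6, 85.7 and 86.4 CPM in siControl, 59.7, 55 and 53.7 in siACLY, and 70.2, 67.1 and 60.4 in siACO1. It fell by 0.59 in siACLY (adjusted p = 1.22e-09) and by 0.37 in siACO1 (adjusted p = 4.16e-06), with no overlap. UHRF1, which reads hemimethylated DNA, fell by 0.61 and 0.52, with uncertain counts, and ASF1A, a histone chaperone, rose by 0.21 in siACO1. DNMT1, the maintenance methyltransferase, rose by 0.18 in siSLC25A1 and fell by 0.25 in siACLY and by 0.23 in siACO1.

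In the E2F and pocket protein list, 8 of 14 fell and 1 rose in siACLY (median -0.15). In siACO1 3 fell and 4 rose (median -0.01), and in siSLC25A1 1 fell and 4 rose (median 0.08). The siACO1 shares were 21.4% lower and 28.6% higher, where 19.3% and 17.8% of all tested genes were. E2F1, an activator of replication genes, stood at 91.9, 93.8 and 90.9 CPM in siControl, 117, 103 and 107 in siSLC25A1, 66.8, 58.3 and 65.2 in siACLY, and 66.8, 64.6 and 74.1 in siACO1. None of the knockdown groups overlapped siControl. E2F1 rose by 0.24 in siSLC25A1 (SE 0.06, adjusted p = 0.00211) and fell by 0.54 in siACLY (SE 0.06, adjusted p = 1.87e-08) and by 0.43 in siACO1 (SE 0.06, adjusted p = 7.19e-07). TFDP1, the partner of the E2F factors, fell by 0.60 in siSLC25A1 (adjusted p = 1.15e-11), where RB1, the pocket protein that restrains them, rose by 0.30 (adjusted p = 1.59e-05). E2F8, a repressor of the family, fell by 0.60 in siACLY, and E2F7, another, rose by 0.54 in siACO1.

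The list of S phase entry and CDT1 turnover had 9 of 16 lower and 2 higher in siACLY (median -0.24), 6 lower and 4 higher in siACO1 (median -0.12), and 4 lower and 3 higher in siSLC25A1 (median -0.05). CCND1 (cyclin D1) fell by 0.50 in siACLY (adjusted p = 4.48e-11) and gave -0.01 in siACO1. CCNE1 (cyclin E1) fell by 0.55 in siACO1 (adjusted p = 3.59e-08) and by 0.26 in siSLC25A1, and gave -0.14 in siACLY (adjusted p = 0.0698). CCNE2 fell by 0.74 in siACLY, with uncertain counts. SKP2, which targets the CDT1 protein for degradation, rose by 0.38 in siACO1 (adjusted p = 2.81e-07). CDKN1B, the inhibitor p27, whose protein is another SKP2 substrate, rose by 0.44 there (adjusted p = 7.94e-09). These are RNA levels, and a link between SKP2 and the genes of its substrates was not tested. DTL, the adaptor that marks CDT1 for degradation on PCNA, fell by 0.31 in siACLY (adjusted p = 0.00103) and by 0.19 in siACO1 (adjusted p = 0.0291), the latter lost with library totals and without siControl replicate 2 or 3 or siACO1 replicate 1 or 3 (-0.24 to -0.14).

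**Figure D5:**
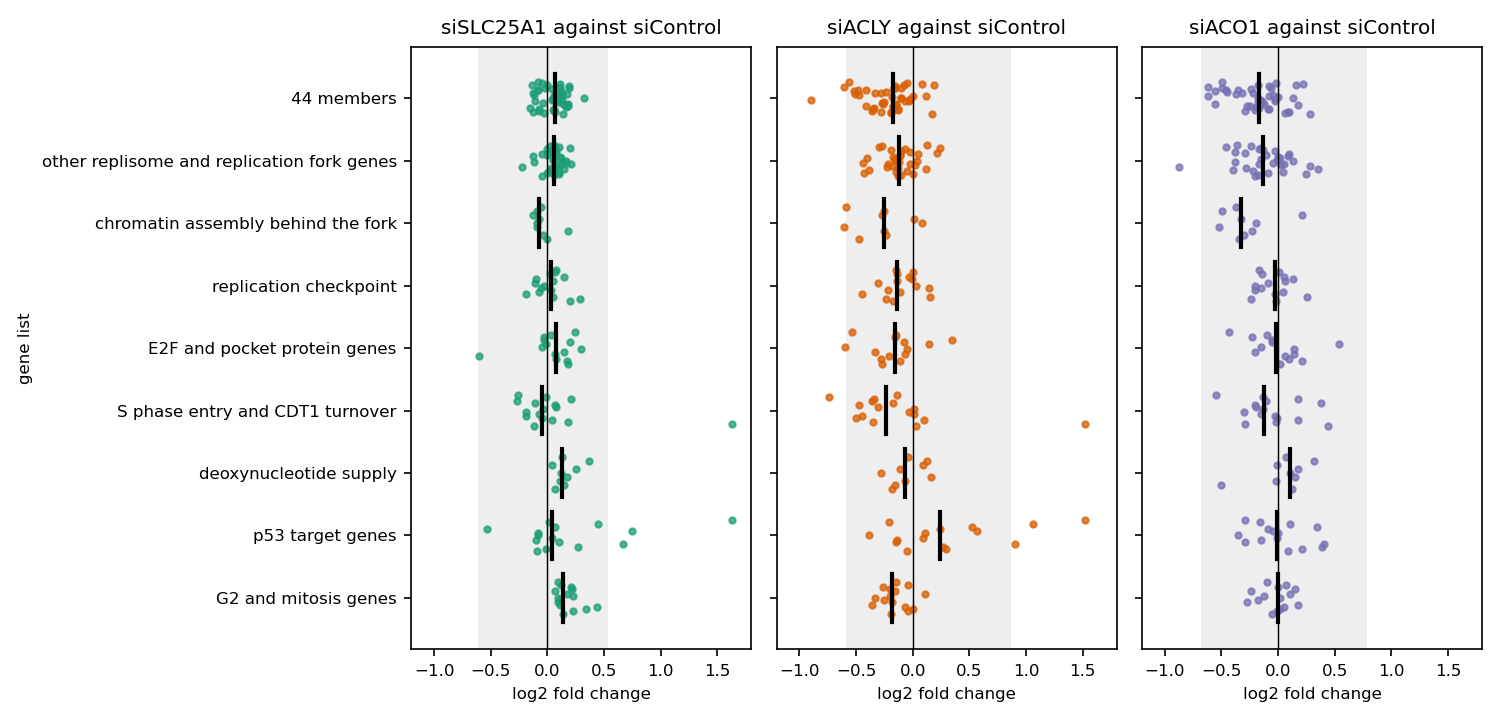
Log2 fold change against siControl (x axis) of every tested gene of the 44 members and of the 8 other lists (y axis), 1 panel for each knockdown; points are genes, black bars medians, and the grey band holds the middle 90% of all tested genes. The medians of the members and of the chromatin assembly, other replisome and S phase entry lists lie left of 0 in siACLY and siACO1. That of the G2 and mitosis list lies left of 0 in siACLY and near 0 in siACO1. In both knockdowns each of these lists has genes on both sides of 0.

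The remaining cell cycle lists are given by their counts. In siACO1, 26.7%, 11.1% and 26.7% of the mitosis, deoxynucleotide and checkpoint lists were called lower, and 13.3%, 11.1% and 6.67% higher. Those of all tested genes were 19.3% and 17.8%. In siACLY 22.2% of the deoxynucleotide list was called lower, near the 18.3% of all tested genes. G2 and mitosis genes had 10 of 15 lower in siACLY (median -0.18), 4 lower and 2 higher in siACO1 (median 0.00), and 7 higher in siSLC25A1 (median 0.14), where replicate 1 was the highest library for every gene of the list. In siACO1 KIF11 and PLK1, a spindle motor and a mitotic kinase, rose by 0.18 and 0.15, and the mitotic kinases TTK and AURKA fell by 0.27 and 0.24. The KIF11 rise was not called without siACO1 replicate 2 (0.14 to 0.23). Deoxynucleotide supply genes had 2 of 9 lower in siACLY (median -0.07), 1 lower and 1 higher in siACO1 (median 0.11) and 2 higher in siSLC25A1 (median 0.13). TK1, thymidine kinase, fell by 0.28 in siACLY, and DCK, deoxycytidine kinase, fell by 0.50 in siACO1. RRM2 was called higher in siSLC25A1 (425, 369 and 354 CPM) and siACO1 (361, 377 and 370), against 288, 303 and 296 in siControl. TYMS was called higher in siSLC25A1 (95.9, 76 and 82.9, against 69, 72.5 and 72.5). Both have uncertain counts. The replication checkpoint list had 5 of 15 lower and 1 higher in siACLY (median -0.14), 4 lower and 1 higher in siACO1 (median -0.03) and 1 of each in siSLC25A1 (median 0.03). CDC25A, the phosphatase that activates CDK2, fell by 0.45 in siACLY (adjusted p = 7.88e-07) and by 0.19 in siSLC25A1, and gave -0.03 in siACO1. The fall in siSLC25A1 was lost without siControl replicate 1 or 2 or siSLC25A1 replicate 2 or 3 (-0.23 to -0.16).

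Of the 15 p53 target genes tested, 7 rose and 2 fell in siACLY (median 0.24). In siACO1 3 rose and 3 fell (median -0.01), and in siSLC25A1 4 rose and 1 fell (median 0.04). The siACO1 shares, 20% higher and 20% lower, were near the 17.8% and 19.3% of all tested genes. CDKN1A, the CDK inhibitor p21, was low throughout: it stood at 1.48, 0.999 and 1.32 CPM in siControl, 4.29, 3.66 and 3.77 in siSLC25A1, 4.11, 3.37 and 3.32 in siACLY, and 0.966, 1.11 and 1.03 in siACO1. It rose by 1.63 in siSLC25A1 (SE 0.19, adjusted p = 1.46e-07) and by 1.52 in siACLY (SE 0.18, adjusted p = 1.43e-07), and gave -0.29 in siACO1 (adjusted p = 0.342). PLK3, a stress kinase, rose in all 3 knockdowns, by 0.67, 0.90 and 0.41, whereas MDM2, which marks p53 for degradation, fell by 0.21 in siACLY and by 0.16 in siACO1. The latter was lost in 6 of 19 alternatives, among them without siControl replicate 2 or 3 or siACO1 replicate 1 or 3 (-0.18 to -0.11).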

How the data were processed

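Poly(A) RNA of 12 MiaPaCa-2 libraries was sequenced, and the authors deposited 1 table of raw read counts per Ensembl gene. Per the submitters' processing notes, CASAVA, FastQC, Trim Galore, STAR 2.7.0e, DESeq2 and the builds GRCh38 and GRCm39 were named, with no role or order. The counting tool, the annotation and the use of strand are not given in the sources used here. Library totals of 24159424 to 43792811 counts set the counting precision. Of 70116 identifiers, 62700 (89.4%) matched a symbol in the gene name table used here. Genes passing edgeR's default expression filter (16197) were fitted in all 12 libraries and 4 groups with edgeR 4.0.16 (R 4.3.3, limma 3.58.1), using TMM scaling and the robust quasi-likelihood test (8 residual degrees of freedom, common biological coefficient of variation 4.89%). The 6 pairwise comparisons were adjusted by Benjamini-Hochberg over all tested genes, with calls at an adjusted p under 0.05. The procedure was run on simulated data in which a small share of the genes changed, in a single group. Those changes were larger than most changes of the members. The run therefore does not bear on calls of small changes, or on the scaling where many genes change. Gene positions and lengths are from GENCODE release 29 on GRCh38. A count was taken as uncertain where 20% of a gene's exon bases overlapped another gene or 20% of its 31-base stretches occurred in one.

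The members and lists were chosen with earlier results of these data known. All 44 could be named, with values per library for the core licensing genes and for the largest called rise and fall of each role. Other lists gave up to 2 rises and 2 falls per knockdown, plus E2F1, CCNE1, CCNE2, DTL and CDKN1A. Ratios between members were not among the planned results. They restate the levels of the same genes and were not tested. Alternatives were other scalings, filters, DESeq2 1.42.0, fits of the 2 groups alone, a replicate block and each library left out.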

Additional observations from a re-analysis of the deposited data

How the results depend on the processing

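Each of the 6 comparisons was recomputed under 19 alternatives, and no called gene value reversed. Of 12084 gene values compared, 11578 kept their side of the threshold, 348 lost their call and 158 gained one. The count of members called in siSLC25A1 was 6, and 11 when only siControl and siSLC25A1 were fitted. Leaving out 1 library gave 2 to 11 (2 without siControl replicate 1, 3 without siControl replicate 2 or 3, and 11 without siACO1 replicate 3). All genes called in siSLC25A1 numbered 3173, and 2319 to 4131 with 1 library left out. The member median in siACO1 was -0.17, -0.12 with library totals, and -0.18 to -0.13 with 1 library left out. The cause was not tested. With library totals the share of called genes that were higher was also 59.0% in siACLY and 57.8% in siACO1 against siSLC25A1, where it was 48.2% in both with TMM. Counts of members called in siACLY ranged from 22 to 32 and in siACO1 from 18 to 26, where those of all genes ranged from 5002 to 6940 and from 5097 to 6195. DESeq2 called 5, 30 and 24 members in siSLC25A1, siACLY and siACO1. Over all genes, replicate numbers did not pair the samples (same-number correlations of -0.044 to 0.09, 0 of 18 above 0.1). Over the 44 members alone, same-number libraries correlated at 0.528, 0.307 and 0.211 between siSLC25A1 and siACLY and at 0.272, 0.107 and 0.276 between siACLY and siACO1. In the other pairs of groups the same-number values ran from -0.32 to 0.308. Libraries of different number correlated at -0.381 to 0.382 over the members. With the replicate block 6, 30 and 25 members and 3270, 6038 and 6093 genes were called against siControl. For siACLY and siACO1 against siSLC25A1 and siACO1 against siACLY, 33, 28 and 18 members were called with the block and 30, 28 and 15 without it. Groups of 3 limit the precision of small changes.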
